A study of Mus musculus with 12 samples.

Results

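Sos1 and Sos2 encode the paralogous SOS exchange factors, which load RAS with GTP when receptor tyrosine kinases are active and so start the RAF, MEK and ERK kinase cascade. Both proteins are widely expressed and overlap in function, so the removal of both need not give the sum of what each removal gives alone. The quantity described here is the non-additivity of the pair of deletions, defined per gene as the Sos1/2DKO level minus the Sos1KO level minus the Sos2KO level plus the WT level, each a mean of 3 arrays on the log2 scale. It equals the Sos1/2DKO difference from WT minus the sum of the Sos1KO and Sos2KO differences from WT. A positive value means a Sos1/2DKO level above that sum, a negative value a level below it, and 0 means that the fold changes multiply. It was computed for all 19505 annotated genes, 1 probe set per gene, of 29129 probe sets in the value table.

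The cells were mouse primary embryonic fibroblasts of strain C57/BL6, taken from E13.5 embryos, and all were grown for 12 days with 4-hydroxytamoxifen, the ligand that activates tamoxifen-dependent Cre. The 4 groups of 3 arrays were Sos1/2DKO, which lacks both genes, Sos1KO, Sos2KO and WT. The WT cultures thus received the agent too, and the labels name neither a Cre driver nor the embryo or litter behind each culture. Arrays of a group are called biological replicates, and p-values measure only the spread between these cultures.

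The deleted genes were low in the groups named for them. Sos1 stood at log2 levels of 7.20, 7.96 and 7.39 in Sos1/2DKO, 7.31, 7.13 and 7.37 in Sos1KO, 8.77, 8.78 and 9.38 in Sos2KO and 8.91, 9.02 and 9.32 in WT. Its non-additivity was 0.35 (95% interval -0.33 to 1.03). Sos2 stood at 7.66, 8.03 and 7.91 in Sos1/2DKO, 8.84, 8.76 and 9.05 in Sos1KO, 7.56, 7.73 and 7.93 in Sos2KO and 8.65, 8.74 and 9.23 in WT. Its non-additivity was 0.12 (-0.44 to 0.68). For each gene the arrays of its 2 deleted groups lay below all arrays of the other 2. With a term for the high-GC background controls both departures were below 0, at -0.091 for Sos1 and -0.12 for Sos2.

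Some array features varied within groups and were unevenly spread over the 4 groups. Dap, a poly-A spike-in control, was at 6.05 to 9.32 on 5 arrays, namely Sos1/2DKO replicate 1, Sos1KO replicate 3 and the 3 Sos2KO arrays, and at 3.59 to 3.82 on the other 7. Sos2KO replicates 1 and 2 had the highest high-GC background, 8.44 and 8.58, against 7.28 to 7.92 on the other 10 arrays. Y-linked genes were expressed on 3 Sos1/2DKO, 1 Sos1KO, 2 Sos2KO and 1 WT arrays. Neither set of arrays split by Dap holds all 4 groups, so the non-additivity has no value within either set. The array's residual SD over genes was 0.259 to 0.340 in Sos1/2DKO, 0.184 to 0.260 in Sos1KO, 0.230 to 0.289 in Sos2KO and 0.179 to 0.217 in WT. Fibroblast markers were above the 75th percentile of the negative control probe sets on all 3 arrays for 7 of 8 genes in Sos1/2DKO, Sos1KO and Sos2KO and 8 of 8 in WT.

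No gene departed from additivity at an adjusted p under 0.05. By limma with Benjamini-Hochberg adjustment over all genes, 0 of 19505 were called (0%), and the smallest adjusted p was 0.439, that of Sfrp2. At an unadjusted p under 0.05 there were 962 genes, or 4.93% of those tested, where 5% is 975. Of these, 583 (2.99%) were above 0 and 379 (1.94%) below. The split depended on the scaling: it was 473 above and 513 below with median centring and 617 above and 544 below with cyclic loess. The count was 2100 without Sos2KO replicate 3 and 1542 without Sos1/2DKO replicate 1, with 0 genes called in either case.

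**Figure D1:**
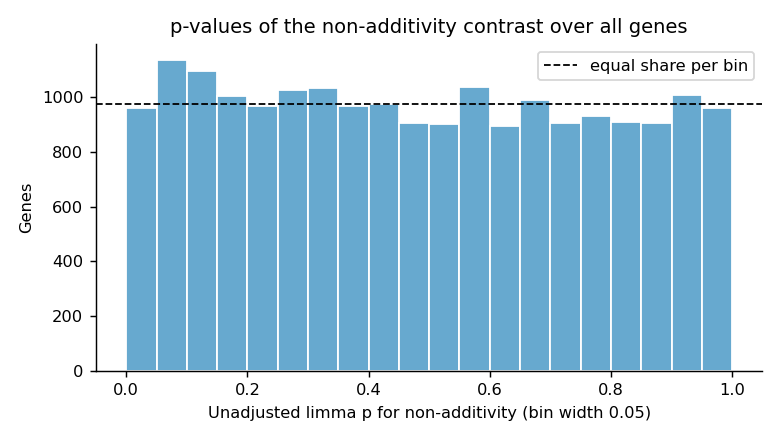
Histogram of the unadjusted limma p for non-additivity over the 19505 genes, in bins of 0.05, with the equal share of 975 genes per bin as a dashed line. The lowest bin holds 962 genes, just under the line.

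The size of the departures was small for most genes and poorly bounded for many. The median over all genes was 0.014, the quartiles were -0.18 and 0.23, and the range was -3.07 to 3.45. A departure of at least 1 log2 unit, which is 2-fold, was measured for 342 genes (1.75%), with 256 above 0 (1.31%) and 86 below (0.441%). The 95% interval lay within 1 log2 unit of 0 for 13639 genes (69.9%), and for the other 5866 it reached beyond. For 7 genes the interval lay wholly beyond 1 log2 unit, namely Sfrp2, Nell2, Igfbp5, Plagl1, Eln and Rgs5 above 0 and Lgals9 below. A lone call needed an unadjusted p of 2.56e-06, which at the median standard error of 0.28 takes a departure of 2.21 log2 units, or 4.64-fold. A missed call therefore does not show additivity.

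Split into the main effect of each deletion and their departure, the non-additivity was the smallest part. Its mean square over all genes was 1.07 times the residual mean square, against 4.63 times for the Sos1 deletion and 2.05 times for the Sos2 deletion. It made up 13.8% of the between-group sum of squares. These ratios describe the 12 arrays, since genes are not independent replicates. They were computed without a term for Dap or the high-GC background. High Dap was on 3 Sos2KO, 1 Sos1/2DKO, 1 Sos1KO and 0 WT arrays, so the Sos2 part is not separated from it.

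Buffering, a Sos1/2DKO difference smaller than the sum, and synergy, a larger one, can be counted in more than one way, and the ways gave opposite majorities. Against the sign of the summed single-knockout differences, 13929 genes (71.4%) departed in the opposite direction, the buffering side, and 5576 in the same direction. The ways used here compare signs only, so they do not strictly count smaller and larger differences. This first count puts on the buffering side genes that passed 0, such as Sfrp2, with a sum of -0.25 and a Sos1/2DKO difference of 3.20. The summed difference shares the Sos1KO, Sos2KO and WT arrays with the non-additivity, with opposite sign, so array noise alone leans to the buffering side. Against the sign of the Sos1/2DKO difference from WT, 10427 genes (53.5%) departed in the same direction, the synergy side, and 9078 in the opposite one. Among the 342 genes with a departure of at least 1 log2 unit, 230 (67.3%) were opposite to the sum, while 289 (84.5%) had the sign of the Sos1/2DKO difference. The second count in turn shares the Sos1/2DKO arrays with the same sign and the WT arrays with opposite sign. The mean residual SD was largest in Sos1/2DKO (0.307) and smallest in WT (0.196). On the linear scale, where additivity means that differences in signal add up, the sign differed for 655 genes (3.36%), none of them among the 342.

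**Figure D2:**
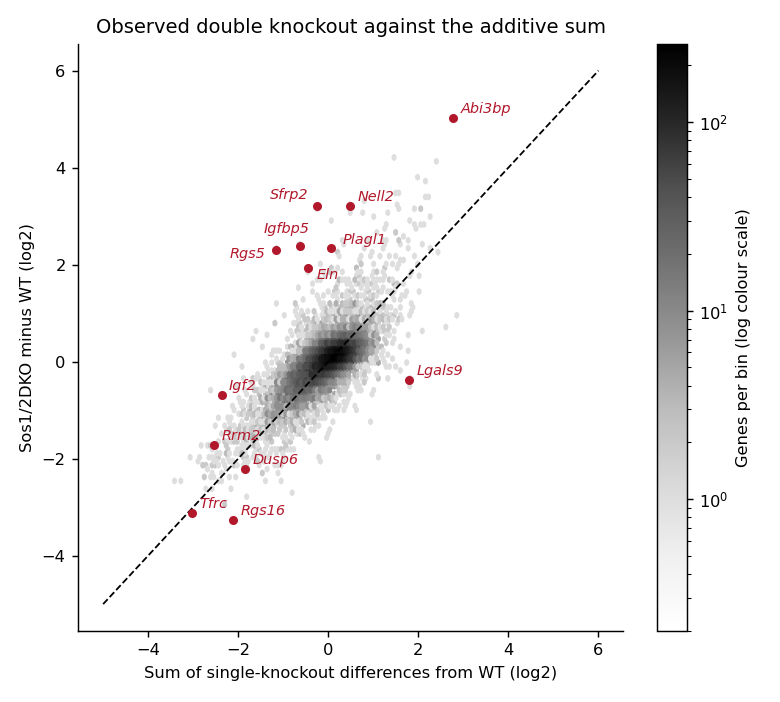
Sos1/2DKO minus WT (vertical axis, log2) against the sum of the Sos1KO and Sos2KO differences from WT (horizontal axis, log2) for 19505 genes in grey bins, with the line of additivity dashed and 13 genes of the text in red. Sfrp2, Nell2, Igfbp5, Plagl1, Eln and Rgs5 lie above the line and Lgals9 below it, while Tfrc lies near it.

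The genes with the smallest p above 0 mostly had their highest levels in Sos1/2DKO. None of the genes named from here on passed the test, and the adjusted p of each was at least 0.907 except for Sfrp2 and Nell2. All 3 Sos1/2DKO arrays were above the other 9 arrays for 8 of the 10 genes of smallest p above 0, which compares with 319 of all genes (1.64%). Since that pattern and a small p come from the same values, it adds nothing to the p.

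Sfrp2, a secreted modulator of WNT signalling, had log2 levels of 9.01, 10.68 and 9.70 in Sos1/2DKO, 6.29, 7.09 and 6.27 in Sos1KO, 6.48, 6.52 and 6.20 in Sos2KO and 6.09, 7.10 and 6.61 in WT. The 3 Sos1/2DKO arrays stood apart from the other 9, whose groups overlapped each other. The sum of the single-knockout differences was -0.25 and the Sos1/2DKO difference 3.20. The non-additivity was 3.45 (SE 0.53, 95% interval 2.30 to 4.60), which is 10.9-fold, with a limma p of 2.25e-05 and an adjusted p of 0.439. It was between 3.00 and 3.84 with any 1 array left out and 2.64 with a term for the 5 arrays of high Dap (the Dap term).

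Nell2, a secreted glycoprotein with EGF-like repeats, had levels of 10.13, 10.62 and 10.51 in Sos1/2DKO, 8.18, 9.41 and 8.32 in Sos1KO, 6.39, 6.27 and 6.21 in Sos2KO and 6.54, 7.76 and 7.35 in WT. Sos1KO lay above WT on every array and Sos2KO below it, so the summed difference was 0.49 against 3.20 in Sos1/2DKO. The non-additivity was 2.71 (SE 0.47, 1.70 to 3.73, limma adjusted p = 0.65). The loss of Sos2 thus went with a lower level where Sos1 was intact, and with a higher level where Sos1 was lost, by -0.93 and 1.79.

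Plagl1, Eln, Lgr4 and Rgs5 also had a Sos2KO mean well below WT and a Sos1/2DKO mean above Sos1KO. Plagl1, an imprinted zinc finger transcription factor, had levels of 10.77, 11.21 and 10.63 in Sos1/2DKO, 8.82, 10.15 and 9.47 in Sos1KO, 7.43, 7.05 and 8.44 in Sos2KO and 8.06, 8.90 and 8.61 in WT. Its non-additivity was 2.27 (1.12 to 3.43). Elastin (Eln), the core of elastic fibres, had 10.68, 11.89 and 10.63 in Sos1/2DKO, 9.40, 10.36 and 8.93 in Sos1KO, 7.65, 8.38 and 8.76 in Sos2KO and 9.09, 8.85 and 9.48 in WT. Its departure was 2.38 (1.13 to 3.63), with Sos1KO and WT overlapping. For Lgr4, a receptor of R-spondins, the departure was 1.70 (0.86 to 2.54), with 8.74, 8.16 and 9.11 in Sos2KO against 9.19, 9.30 and 10.01 in WT. Rgs5, a GTPase activator of heterotrimeric G proteins known from pericytes, was added after its values were seen. It had 9.55, 9.92 and 10.16 in Sos1/2DKO, 7.17, 9.59 and 8.35 in Sos1KO, 5.33, 5.44 and 6.17 in Sos2KO and 6.14, 9.21 and 7.40 in WT. The WT arrays spanned over 3 log2 units, and the departure of 3.45 had a wide interval (1.39 to 5.50).

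In 4 other genes the Sos2KO mean was nearer to the WT mean. Igfbp5, which binds insulin-like growth factors, had 10.94, 11.70 and 9.88 in Sos1/2DKO, 8.98, 8.96 and 7.46 in Sos1KO, 7.50, 7.58 and 8.29 in Sos2KO and 8.0, 9.22 and 8.12 in WT. The 3 other groups overlapped, and the departure was 3.03 (1.5 to 4.55). Cybrd1, a ferric reductase, had 6.71, 6.92 and 6.81 in Sos1/2DKO, 5.67, 5.67 and 5.32 in Sos1KO, 5.03, 4.86 and 5.57 in Sos2KO and 4.87, 5.25 and 5.33 in WT, with a departure of 1.25. Its WT and Sos2KO values were each under the negative control percentile on 2 of 3 arrays, so the size is uncertain. Megf6, a protein with EGF-like repeats, departed by 1.08, and Mab21l2, a gene of embryonic development, by 1.95.

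Zbed4 and Fmr1 departed upward in another way, since their Sos1/2DKO arrays did not stand above the rest. Zbed4, a zinc finger protein, had 5.73, 5.85 and 6.17 in Sos1/2DKO, 5.80, 5.56 and 5.92 in Sos1KO, 5.54, 5.19 and 5.83 in Sos2KO and 6.72, 6.70 and 6.51 in WT. The 3 knockout groups overlapped and all lay below WT, so the sum of -2.0 was further from 0 than the -0.72 measured, a departure of 1.28 (0.71 to 1.85). Fmr1, the RNA-binding protein whose silencing causes fragile X syndrome, was at 8.42, 8.47 and 8.78 in Sos2KO alone, below the 9.28 to 10.01 of the WT arrays. In Sos1/2DKO it was at 9.46, 9.80 and 9.42, within the WT range, for a departure of 1.26 (0.64 to 1.87).

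**Figure D3:**
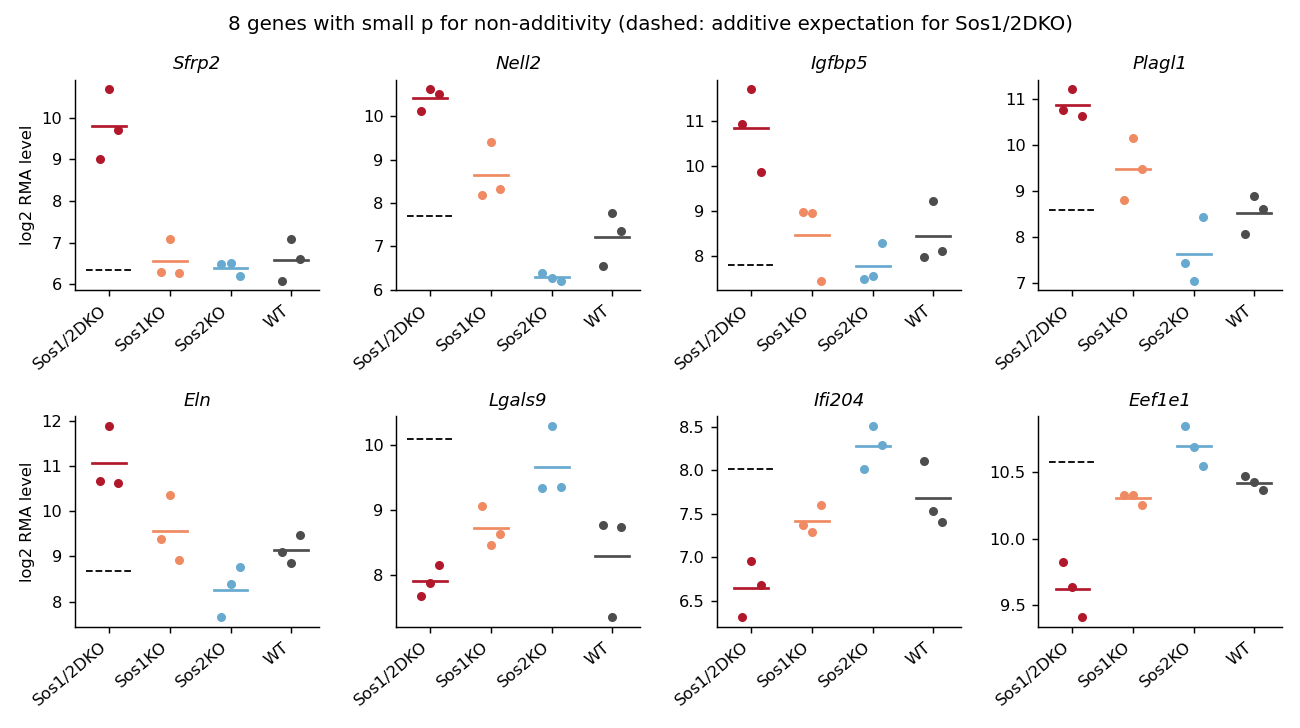
log2 RMA levels by array (points) and group means (solid lines) for 8 genes in Sos1/2DKO, Sos1KO, Sos2KO and WT, with the level that additivity gives for Sos1/2DKO dashed. The Sos1/2DKO arrays of Sfrp2, Nell2, Igfbp5, Plagl1 and Eln lie above the dashed line, and those of Lgals9, Ifi204 and Eef1e1 below it.

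Among the genes of smallest p below 0, the Sos2KO mean was above WT in all 10, and the Sos1/2DKO mean was below the Sos1KO mean in all 10. Their choice by sign and p favours that shape. Lgals9, the lectin galectin-9, had 7.69, 7.89 and 8.16 in Sos1/2DKO, 9.07, 8.46 and 8.64 in Sos1KO, 9.34, 10.29 and 9.35 in Sos2KO and 8.78, 7.35 and 8.74 in WT. The departure was -2.18 (-3.29 to -1.08) with all arrays and -1.71 without WT replicate 2, the lowest array. Ifi204, an interferon-inducible protein, had 6.31, 6.96 and 6.68 in Sos1/2DKO, 7.38, 7.29 and 7.60 in Sos1KO, 8.02, 8.51 and 8.29 in Sos2KO and 8.10, 7.54 and 7.40 in WT, a departure of -1.36 (-2.03 to -0.69). The Sos1/2DKO arrays of Ifi204 were below all others.

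Eef1e1, an auxiliary protein of the aminoacyl-tRNA synthetase complex, had 9.82, 9.64 and 9.41 in Sos1/2DKO, 10.33, 10.33 and 10.26 in Sos1KO, 10.85, 10.69 and 10.55 in Sos2KO and 10.47, 10.43 and 10.37 in WT. The groups did not overlap, and the departure was -0.95 (-1.40 to -0.51). Inhbb, the beta B subunit of activins and inhibins, departed by -0.83 and Ston1, an endocytic adaptor, by -0.97, each with all 3 Sos1/2DKO arrays below the other 9, as for 224 of all genes (1.15%). The remaining 5 were Iglon5, Ubald1, Pcbd1, Slc9b2 and Wbp2, with departures of -0.78 to -1.57. Iglon5 and Pcbd1 were under the negative control percentile on 2 of 3 Sos1/2DKO arrays. All 3 Sos2KO arrays and none of the WT arrays had the high Dap, so between these groups Dap and genotype cannot be told apart. A term for Dap rests on the Sos1/2DKO and Sos1KO arrays only. With that term the departures of these 20 genes kept their sign.

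The upstream pathway was described by its exchange factors, receptors, RAS GTPases, GTPase-activating proteins, adaptors and kinases, with list medians between -0.61 and 0.27. The deleted genes Sos1 and Sos2 are themselves RAS exchange factors, so this family does not hold intact genes only. The 8 RAS exchange factors had 4 values above 0 and 4 below beside 52.1% above and 47.9% below over all genes. Their median was 0.05, beside 0.014 over all genes, and -0.07 without WT replicate 1. Rasgrp3, an exchange factor regulated by diacylglycerol, had 7.83, 7.01 and 6.86 in Sos1/2DKO, 7.85, 8.38 and 9.10 in Sos1KO, 7.53, 6.76 and 7.11 in Sos2KO and 6.92, 7.45 and 7.37 in WT. It was highest in Sos1KO, for a departure of -1.10 (-2.10 to -0.09), which was -0.15 with the Dap term. The 19 receptor tyrosine kinases had 13 values above 0 and a median of 0.27, which was 0.07 without WT replicate 3 and -0.0047 with the high-GC term. Fgfr2, a receptor of fibroblast growth factors, was at 9.76, 10.06 and 9.37 in Sos1/2DKO, 7.28, 9.29 and 9.73 in Sos1KO, 7.14, 7.17 and 7.15 in Sos2KO and 7.64, 7.38 and 7.85 in WT. Sos1KO replicate 1 was apart from the other 2 of its group, and without it the departure of 1.44 became 0.70.

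The 4 measured RAS GTPases of 6 listed all had values below 0, with a median of -0.61, and 2 had an unadjusted p under 0.05, beside 1.94% of all genes with such a p below 0. Nras had 7.16, 7.59 and 6.99 in Sos1/2DKO, 8.27, 8.15 and 8.23 in Sos1KO, 8.45, 7.85 and 8.62 in Sos2KO and 8.50, 8.44 and 8.45 in WT. The Sos1/2DKO arrays were below the other 9, and the departure was -0.81 (SE 0.29, -1.43 to -0.19, limma adjusted p = 0.907). Rras, a RAS relative tied to integrin adhesion, had 10.94, 10.35 and 10.45 in Sos1/2DKO, 10.99, 10.89 and 11.01 in Sos1KO, 10.69, 11.50 and 10.88 in Sos2KO and 10.39, 10.59 and 10.39 in WT. Each single knockout was above WT on all arrays while Sos1/2DKO overlapped WT, a departure of -0.95 (-1.60 to -0.30). Rras2 and Mras each departed by -0.41, with intervals that hold 0. The median of the 4 was between -0.71 and -0.52 with any 1 array left out.

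Adaptors between receptors and SOS had a median of 0.11 over 14 genes, RAS GTPase-activating proteins 0.10 over 8 and RAF, MEK and ERK kinases 0.14 over 6 of 12 listed. With the high-GC term these medians were -0.014, -0.10 and -0.11, and the lowest with 1 array left out were 0.011, 0.014 and -0.012, so their sign is unsure. Map2k1, which encodes MEK1, had 7.98, 8.05 and 8.26 in Sos1/2DKO, 8.85, 8.43 and 8.52 in Sos1KO, 8.60, 8.82 and 8.55 in Sos2KO and 8.61, 8.80 and 8.40 in WT. It was lower on each Sos1/2DKO array than on the other 9, by a departure of -0.55 (-1.06 to -0.05). The 14 RAC GTPases and RAC exchange factors, a second route from SOS1, had a median of 0.03 that was -0.011 with median centring.

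Downstream of ERK, the feedback inhibitors were mostly below additivity, while the median of the transcriptional targets depended on the setting. Of 11 feedback inhibitors, which dampen ERK or its activation, 2 were above 0 and 9 below, with a median of -0.38, and 1 (Spry2) had an unadjusted p under 0.05, beside 1.94% of all genes. The median was -0.62 without Sos1KO replicate 3, -0.29 without Sos2KO replicate 3 and -0.59 with the Dap term or the high-GC term. Their median difference from WT was -1.22 in Sos1/2DKO, -0.41 in Sos1KO and -0.06 in Sos2KO. Spry2, an inhibitor of receptor signalling, had 7.57, 7.75 and 7.13 in Sos1/2DKO, 8.73, 8.21 and 7.90 in Sos1KO, 8.89, 8.31 and 8.71 in Sos2KO and 8.71, 8.84 and 8.55 in WT. Its Sos1/2DKO arrays were below all others, and its departure was -0.74 (-1.45 to -0.03). Dusp4 departed by -1.17 and Spry1 by -1.09, while Dusp5 was at 0.18.

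Dusp6, a phosphatase of ERK, had 6.84, 8.0 and 6.61 in Sos1/2DKO, 8.42, 8.21 and 7.59 in Sos1KO, 8.48, 8.65 and 9.35 in Sos2KO and 9.27, 9.51 and 9.34 in WT. The single-knockout differences of -1.30 and -0.55 add up to -1.85 against -2.22 in Sos1/2DKO, and the departure of -0.38 had an interval of -1.41 to 0.66. It was -0.11 without Sos1/2DKO replicate 3 and -0.97 with the Dap term. The 23 RAS-ERK targets had 10 values above 0 and 13 below, with a median of -0.03 that was 0.33 without Sos2KO replicate 3, 0.13 with the Dap term and -0.38 with the high-GC term. Fosl1, an AP-1 subunit, had 7.81, 6.84 and 7.31 in Sos1/2DKO, 7.84, 7.65 and 7.62 in Sos1KO, 9.31, 8.76 and 9.0 in Sos2KO and 8.99, 8.35 and 8.75 in WT. Its departure was -0.71 (-1.45 to 0.03). Myc, a transcription factor of growth genes, had 8.29, 8.26 and 8.62 in Sos1/2DKO, 9.89, 8.88 and 8.71 in Sos1KO, 9.96, 9.83 and 10.43 in Sos2KO and 10.14, 10.18 and 9.93 in WT. Its departure was -0.76 (-1.59 to 0.07), or -0.39 without Sos1KO replicate 1 and -1.18 with the Dap term.

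Cell cycle genes were mostly above additivity with all arrays in the fit, and the median difference between Sos1/2DKO and Sos1KO was -0.13 for replication and -0.33 for G2/M genes. Of 24 replication and E2F genes 21 were above 0, with a median of 0.30, which was 0.12 without Sos1/2DKO replicate 2, 0.14 without Sos2KO replicate 2, 0.47 without Sos1/2DKO replicate 3 and 0.09 with the high-GC term. Of 24 G2/M genes 20 were above 0, with a median of 0.27. The G2/M median differences from WT were -1.94 in Sos1/2DKO, -1.57 in Sos1KO and -0.61 in Sos2KO. Members of a list move together, so their number does not measure precision: leaving out 1 array took the G2/M median between -0.03 (without Sos1KO replicate 1) and 0.58 (without Sos1KO replicate 3), while the high-GC term gave -0.09 and the Dap term 0.90.

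Rrm2, a subunit of ribonucleotide reductase, had 8.15, 8.46 and 8.30 in Sos1/2DKO, 7.83, 8.36 and 8.29 in Sos1KO, 9.28, 9.03 and 9.80 in Sos2KO and 10.25, 9.72 and 10.12 in WT. Sos1/2DKO and Sos1KO overlapped and lay below the other groups, and the departure was 0.81 (SE 0.31, 0.13 to 1.48, limma adjusted p = 0.907). Cdt1, a replication licensing factor, had 6.70, 7.45 and 7.20 in Sos1/2DKO, 6.96, 6.54 and 7.03 in Sos1KO, 8.04, 8.12 and 8.23 in Sos2KO and 8.50, 8.42 and 8.49 in WT, a departure of 0.61 (0.01 to 1.20). With the high-GC term these departures were 0.48 and 0.34. Ccna2, which encodes cyclin A2, departed by 0.88 with an interval of -0.41 to 2.17, and by 0.26 with the high-GC term. The 18 CDK inhibitors and p53 targets had a median of 0.13 that was -0.10 with the Dap term, with Cdkn2a at -0.91 (-1.52 to -0.30) and Cdkn1b, the inhibitor p27, at 0.75 (0.16 to 1.34).

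**Figure D4:**
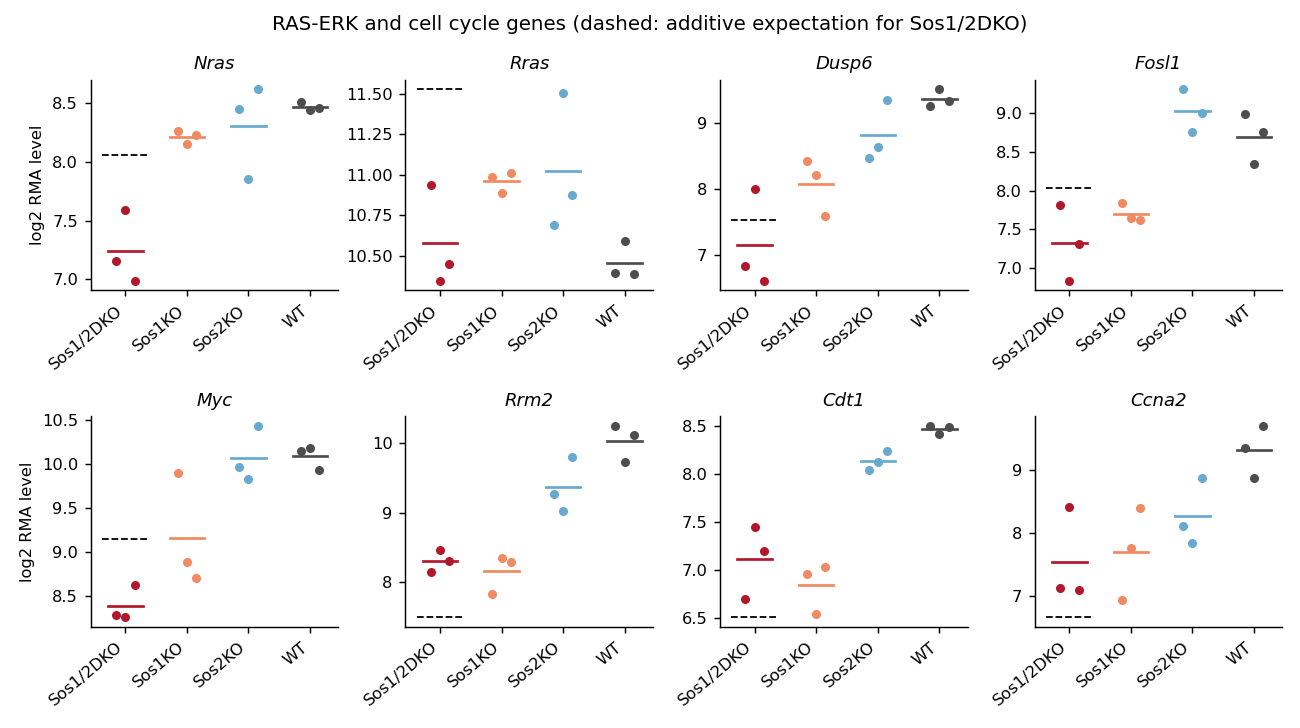
log2 RMA levels by array (points) and group means (solid lines) for 5 RAS-ERK and 3 cell cycle genes in Sos1/2DKO, Sos1KO, Sos2KO and WT, with the additive level for Sos1/2DKO dashed. The Sos1/2DKO mean is below the dashed line for Nras, Rras, Dusp6, Fosl1 and Myc, and above it for Rrm2, Cdt1 and Ccna2.

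Insulin-like growth factor genes had the largest list median. Of 10 measured IGF ligands and binding proteins 8 were above 0, beside 52.1% of all genes, and 3 of them had an unadjusted p under 0.05, beside 2.99%. The list median was 1.23. The median difference from WT was 0.59 in Sos1/2DKO, 0.19 in Sos1KO and -0.44 in Sos2KO. The list median was 0.85 to 1.56 with any 1 array left out, 0.70 with the high-GC term and 0.34 with the Dap term.

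Igfbp4, like Igfbp5 above, binds the ligands. It had 10.39, 11.11 and 9.53 in Sos1/2DKO, 8.07, 8.46 and 9.28 in Sos1KO, 7.56, 7.46 and 8.60 in Sos2KO and 7.86, 8.32 and 8.21 in WT, with the Sos1/2DKO arrays above the other 9 and a departure of 2.00 (0.75 to 3.25). The ligand Igf2 had 11.57, 12.03 and 11.86 in Sos1/2DKO, 11.58, 11.47 and 9.21 in Sos1KO, 11.52, 11.96 and 12.23 in Sos2KO and 11.89, 12.78 and 12.86 in WT. Its departure of 1.68 rested in part on the low Sos1KO replicate 3, without which it was 0.90, and it was 0.33 with the Dap term. Igf1 departed by 1.28 (-0.11 to 2.67), Igfbp3 by 1.21 (-0.09 to 2.5) and Igfbp2 by 1.26 (-0.79 to 3.31), the last 0.22 without Sos1KO replicate 1. With the Dap term they were 0.24, 0.58 and 2.40, in that order. The receptor Igf2r, which clears IGF2, was at 0.64 (-0.07 to 1.36), or 0.35 with the Dap term and 0.19 with the high-GC term.

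Secreted WNT modulators had 10 of 15 values above 0 and a median of 0.25, which was 0.036 without Sos1/2DKO replicate 3, 0.11 without WT replicate 1, 0.48 without Sos1/2DKO replicate 2 and 0.47 without Sos1KO replicate 1. Beside Sfrp2, Dkk3, a secreted protein of the Dickkopf family, had 10.80, 11.19 and 10.52 in Sos1/2DKO, 10.01, 9.40 and 8.87 in Sos1KO, 8.33, 8.26 and 9.75 in Sos2KO and 9.22, 9.07 and 9.27 in WT. Its Sos1/2DKO arrays were above the other 9, for a departure of 1.81 (0.69 to 2.94), or 1.05 with the high-GC term. Wif1, an inhibitor that binds WNT, was at -0.65.

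Matrix genes were above additivity more often than not. Of 25 collagen and matrix genes 19 were above 0 with a median of 0.26, which was 0.08 without Sos2KO replicate 2, 0.52 without Sos2KO replicate 3 and -0.13 with the high-GC term. Beside Eln, Sparc, a collagen-binding matrix protein, departed by 0.59 (0.09 to 1.09). Of 11 small leucine-rich proteoglycans 9 were above 0, with a median of 0.81 that was -0.01 without Sos1/2DKO replicate 2 and 0.41 with the high-GC term. Fmod, which binds collagen fibrils, departed by 2.49 (-0.14 to 5.12) and Ogn by 0.81 (-0.11 to 1.73). Chondrocyte markers had values of the same sign. All 10 were above 0, with a median of 0.74 that was 0.20 without Sos1/2DKO replicate 1 and 1.33 without Sos1/2DKO replicate 3. Their mean per array was 6.46 to 8.05 in Sos1/2DKO, 5.90 to 7.24 in Sos1KO, 5.89 to 6.09 in Sos2KO and 5.93 to 6.03 in WT, and their part in the matrix values was not tested. A change in the number of cells of a type and a change in RNA per cell cannot be told apart in such bulk samples.

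FOXO transcription factors and their targets had 12 of 14 values above 0 and a median of 0.26, or 0.13 with the high-GC term. Foxo1, which is held out of the nucleus by AKT, had 8.21, 8.87 and 8.09 in Sos1/2DKO, 7.26, 7.85 and 8.17 in Sos1KO, 6.56, 6.68 and 7.11 in Sos2KO and 7.0, 7.77 and 7.72 in WT, a departure of 1.35 (0.47 to 2.23). Sos1/2DKO and Sos1KO overlapped, and so did Sos2KO and WT. Sod2, the mitochondrial superoxide dismutase, was at 0.49 (0.05 to 0.93).

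Interferon-stimulated genes were mostly below additivity, with Sos2KO above WT on replicates 2 and 3 only. Their mean per array was 5.30, 6.46 and 6.70 in Sos2KO and 5.94, 5.63 and 5.45 in WT. The list's median level was under the array's negative control percentile on Sos1/2DKO replicates 2 (5.57 against 5.76) and 3 (5.25 against 5.52). The same held for Sos1KO replicate 2 (5.26 against 5.34) and WT replicate 3 (5.11 against 5.61), and the rest were above it. Many members were thus near background on those arrays, so the size of the list median is uncertain. Of 24 genes 5 were above 0 and 19 below, beside 47.9% of all genes below. Of the 19, 4 had an unadjusted p under 0.05, beside 1.94% of all genes. The median was -0.41, and it was -0.24 without Sos2KO replicate 3, -0.75 without Sos2KO replicate 1, -0.63 without Sos1KO replicate 2 and -0.85 with the high-GC term. The median difference from WT was 0.03 in Sos1/2DKO, 0.06 in Sos1KO and 0.42 in Sos2KO. Usp18, a protease that removes ISG15 from proteins, had 5.22, 5.16 and 5.16 in Sos1/2DKO, 5.65, 5.18 and 5.79 in Sos1KO, 5.66, 6.99 and 7.81 in Sos2KO and 5.91, 5.53 and 5.11 in WT. It was high on Sos2KO replicates 2 and 3 alone, for a departure of -1.67 (-2.91 to -0.42) that was -1.17 without Sos2KO replicate 3. Usp18 was under the negative control percentile on 2 of 3 Sos1/2DKO, 1 Sos1KO and 1 WT arrays, so the size is uncertain. Oasl2, a member of the oligoadenylate synthetase family, had the same 2 high arrays (7.60 and 8.16) and departed by -1.65 (-3.0 to -0.30), with 1 Sos1/2DKO and 1 WT array under that percentile. The macrophage marker mean per array was 5.46 to 6.51 in Sos1/2DKO, 6.49 to 7.58 in Sos1KO, 5.18 to 6.04 in Sos2KO and 5.99 to 7.85 in WT, and the 17 markers had a median non-additivity of 0.38, which was -0.60 with the Dap term and -0.23 without WT replicate 2. With a term for the macrophage mean the interferon median was -0.44.

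Cholesterol synthesis genes also lay below additivity, with 14 of 18 below 0 and a median of -0.41, and with Sos2KO above WT by a median of 0.28. Idi1, an isomerase of isoprenoid synthesis, departed by -1.15 (-2.53 to 0.23), while Sqle, which encodes squalene epoxidase, was at 0.64 (0.13 to 1.16). The median of this list was -0.12 without Sos1/2DKO replicate 3, -0.15 without Sos2KO replicate 2 and -0.13 with the high-GC term. Of 8 fibroblast markers 3 were above 0 and 5 below, with a median of -0.18 that was 0.027 without WT replicate 2 and -0.47 without Sos2KO replicate 1. The marker of smallest p, Thy1, a surface glycoprotein, had 9.21, 9.64 and 9.50 in Sos1/2DKO, 11.14, 10.22 and 9.86 in Sos1KO, 11.20, 11.67 and 11.69 in Sos2KO and 11.61, 10.42 and 10.95 in WT. Its Sos1/2DKO arrays were below all others, for a departure of -1.48 (-2.50 to -0.47).

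Housekeeping and stress lists had medians between -0.10 and 0.17. They were 0.04 for 25 oxidative phosphorylation genes, which became -0.017 with cyclic loess, -0.10 for 21 ribosomal proteins and -0.10 for 25 lysosome and autophagy genes. They were -0.02 for 19 glycolysis and hypoxia genes, 0.17 for 17 ATF4 targets, 0.14 for 15 inflammatory genes and 0.07 for 14 contractile, SRF and YAP targets. The Dap term gave 0.25 for glycolysis and hypoxia genes, and the high-GC term 0.025 for ribosomal proteins. Within these lists the 95% interval was inside 1 log2 unit for 22 of the 25 oxidative phosphorylation genes, 19 of the 21 ribosomal proteins and 23 of the 25 lysosome genes, but for 1 of the 24 G2/M genes.

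**Figure D5:**
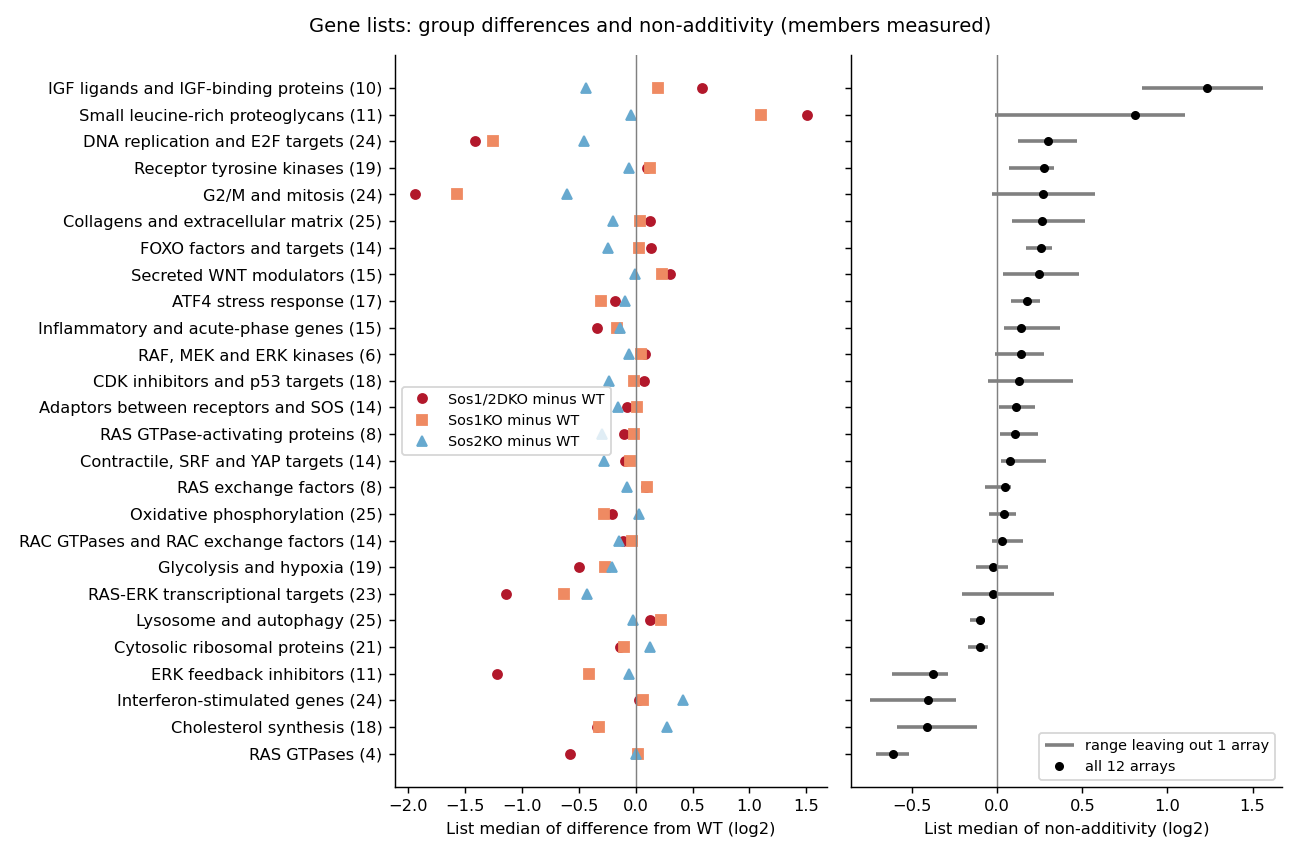
Medians of 26 pathway lists, with the number of measured members in brackets. The left panel shows the median difference from WT (log2) in Sos1/2DKO, Sos1KO and Sos2KO, and the right panel the median non-additivity (log2) with the range when 1 of the 12 arrays is left out; IGF genes are highest at 1.23 and RAS GTPases lowest at -0.61.

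None of the 5 highest and 5 lowest genes of Sos1/2DKO against WT was among the 20 described by smallest p. Among the 5 highest, the non-additivity was 2.25 for Abi3bp (-1.36 to 5.85), 2.78 for Scg2 (-0.37 to 5.93), 1.73 for Penk (-2.58 to 6.05), 1.79 for Ptprq (0.46 to 3.12) and 1.61 for Galnt13 (0.16 to 3.06). Scg2 and Galnt13 were under the negative control percentile on all 3 Sos2KO and all 3 WT arrays, Abi3bp on 2 and Ptprq on 1 WT array, so the size of these departures is uncertain. Single arrays also moved them, to 1.11 for Scg2 and 1.05 for Galnt13 without Sos1/2DKO replicate 2, and to 0.88 for Abi3bp and 0.14 for Penk without Sos1KO replicate 1. Penk, which encodes proenkephalin, had 11.96, 13.19 and 6.90 in Sos1/2DKO, 5.76, 10.41 and 10.67 in Sos1KO, 6.63, 6.34 and 6.61 in Sos2KO and 6.26, 6.70 and 6.63 in WT. A single Sos1/2DKO array and a single Sos1KO array were near the WT level, so the interval spans both buffering and synergy of several log2 units. Ptprq, a receptor phosphatase, had 9.23, 9.10 and 9.88 in Sos1/2DKO, 7.59, 8.72 and 6.83 in Sos1KO, 5.89, 5.18 and 5.51 in Sos2KO and 5.47, 5.04 and 6.37 in WT, in steps without overlap except between Sos2KO and WT.

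Among the 5 lowest, the departures were -1.16 for Rgs16, -0.10 for Tfrc, -0.69 for Olr1, -0.64 for Ankrd1 and -0.96 for Tll1, and every interval held 0. Leaving out Sos1KO replicate 1 gave -0.37 for Rgs16 and -0.21 for Ankrd1, and leaving out Sos1/2DKO replicate 2 gave -0.37 for Tll1. Tfrc, the transferrin receptor, had 4.92, 6.12 and 4.45 in Sos1/2DKO, 6.59, 6.27 and 6.25 in Sos1KO, 7.43, 6.27 and 7.86 in Sos2KO and 8.43, 8.26 and 8.19 in WT. Its summed single-knockout difference of -3.03 stood beside -3.13 in Sos1/2DKO, with an interval of -1.36 to 1.15 for the departure. In Sos1/2DKO the level was near background for Tfrc on 2 arrays and for Olr1 on 1, so the size of both departures is uncertain. For Tfrc it was -0.82 with the high-GC term and -0.58 to 0.25 with 1 array left out.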

How the data were processed

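Per the submitters' processing notes the arrays were processed with RMA in R 3.6.3, and the authors deposited log2 values for 29129 probe sets and 12 arrays. The authors' deposited tables of log2 fold change, compared with differences of group means, matched within 6.22e-09, which fixes scale and direction. The genome build is not given in the sources used here, so coordinates are left out. A single gene symbol was annotated for 19572 probe sets, several for 0 and none for 9557. For 55 genes with several probe sets the brightest on average was kept, leaving 19505 genes, all listed by RefSeq. Array medians over genes were 6.36 to 6.45.

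A limma 3.58.1 model in R 4.3.3, with 1 mean for each group and 8 residual degrees of freedom over 12 arrays, tested the non-additivity contrast, two-sided, with Benjamini-Hochberg adjustment and a threshold of 0.05. No single-knockout comparison was tested. The code was tested on simulated data. The number of arrays limits the precision. A level under the 75th percentile of 5222 negative control probe sets (5.01 to 5.76 by array) was taken as near background.

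The members and the 36 lists (26 pathways, 10 cell types, 524 of 578 members measured) were chosen with earlier results of these data known. Named genes are Sos1, Sos2, the 10 of smallest p of each sign (predicted, receptor segment and small RNA genes left out, and genes with no group mean above 6.42, the median of gene means), the 2 of smallest p per list, and the 5 largest differences of each sign between Sos1/2DKO and WT. Rgs5, Igf1, Igf2r, Igfbp2, Igfbp3, Dusp6, Rras2, Mras, Lcn2, Cxcl15 and list members at the ends of a range were named after their values were seen. Same-numbered arrays did not deviate together throughout: over 18 pairs the correlation of deviations was -0.345 to 0.305, with 6 over 0.1. Replicates 3 of Sos1KO, Sos2KO and WT correlated at 0.150 to 0.305 with each other. Sos1/2DKO replicate 3 was at -0.345 to -0.292 with them and Sos1/2DKO replicate 2 at 0.236 to 0.370, so the numbers were not used as pairs. Alternatives were other scalings, filters, priors, weights, a replicate block, terms for Dap, high-GC background, embryo sex and macrophage level, and each array left out. Signs on the linear scale and the split by scaling were added after seeing the data.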

Additional observations from a re-analysis of the deposited data

Results flagged for a closer look

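Control probe sets outside the gene measurements stood apart on 5 arrays. The poly-A control Dap, added during labelling, was at 7.67 on Sos1/2DKO replicate 1, 9.32 on Sos1KO replicate 3 and 8.31, 8.25 and 6.05 on Sos2KO replicates 1, 2 and 3, above the 3.59 to 3.80 of the WT arrays. The high-GC background controls were at 8.44 on Sos2KO replicate 1 and 8.58 on Sos2KO replicate 2, above the 7.30 to 7.54 of the WT arrays.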

How the results depend on the processing

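Of 23 alternatives, 20 gave 0 calls, as did the main setting. A replicate block gave 1, Sfrp2 (3.45, limma adjusted p = 0.0259), although the replicate numbers do not pair the arrays. The term for the arrays of high Dap spike-in gave 1, Lcn2 (4.57, adjusted p = 0.0204, against 0.10 without the term), which was high on 1 Sos1/2DKO and 1 Sos1KO array. Leaving out 1 array gave 0 to 1 calls, the 1 being Cxcl15 without Sos1/2DKO replicate 3 (3.14, adjusted p = 0.0179, against 2.28). The 962 genes (4.93%) with an unadjusted p under 0.05 became 1684 (8.63%) with array weights, 608 (3.12%) with the spike-in term and 617 (3.16%) with the high-GC background term. They became 643 to 2100 (3.3% to 10.8%) with 1 array left out and 929 (4.76%) with the replicate block. With all 29129 probe sets tested, 1478 had such a p, a like share of 5.07%. Of named gene values under the alternatives 2571 kept direction and side of the threshold and 17 turned sign. These were Mthfd2 (-0.018), Ptprc (-0.14) and Tpi1 (0.20) with the spike-in term, Sos1 (-0.091) and Sos2 (-0.12) with the high-GC background term and, over arrays left out, Lcn2 (-1.14 to 1.84), Olr1 (-1.21 to 0.27), Sos2 (-0.061 to 0.23) and Tfrc (-0.58 to 0.25). Of list medians 41 moved by more than the replicate SD and 787 did not. The cause was not tested.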
